A study of Mus musculus with 13 samples.

Results

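Sparse editing sites in 3' untranslated regions (3' UTRs) are adenosines that read as guanosine in some RNA molecules and have few other edited adenosines around them. They were chosen from the sites listed in all 3 deposited comparisons of an Adar genotype with wild type. A site was kept if it lay in a 3' UTR on its strand and outside coding sequence (GENCODE M21, mm10), had 0 to 2 other listed sites within 100 nt on that strand, and had at least 10 reads of A or G in each of the 13 libraries. This left 480 of 39309 listed adenosines, in 271 host genes, of which 157 held 1 site and 114 held 2 or more. The 1978 sites that met the other conditions but had more than 2 neighbours are called clustered here. The rule did not use editing levels or differences between genotypes, but each listed site had to show at least 1 non-reference read. The level of a site is the percentage of G among its A and G reads.

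The RNA came from whole brain of C57BL/6 mice of 4 Adar genotypes, each mouse a separate library. In P195A/- mice (n = 3, 42 days old, 2 females and 1 male) the P195A allele is the only one named in the short label, beside a null allele. The longer label of these animals writes P195A on both sides together with AdarKO/+, and is not explained. P195A/P195A mice (n = 4) were 42, 42, 48 and 48 days old, with 3 females and 1 male, and carry the substitution on both alleles. P195A/+ mice (n = 3, 43 days, 2 females and 1 male) carry it opposite a wild-type allele, and wild-type mice (n = 3) were 48, 48 and 74 days old, with 2 females and 1 male. Age therefore differs with genotype, and in bulk RNA of a whole brain a different level of editing within cells and a different share of RNA from each kind of cell cannot be told apart.

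ADAR enzymes bind double-stranded RNA and deaminate adenosine to inosine, which pairs like guanosine and is sequenced as G. P195A lies in the domain of the long, interferon-inducible form of ADAR1 that binds RNA and DNA in the left-handed Z form, while the shorter nuclear form of ADAR1 lacks that domain. In mammalian transcripts most edited adenosines lie in dense clusters where inverted copies of a repeat fold onto each other. Single sites outside such clusters include the recoding sites of neuronal receptors, and in 3' UTRs an edited base can fall in binding sites of microRNAs and proteins. ADAR2, encoded by Adarb1, also edits single sites in neurons.

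The sequences below are those of 7 of the 8 sites that passed the test in a comparison of genotypes, followed by a site in Snhg11 with the highest level among the deeply read sites and the most edited site of the host gene with most members (Dlg4). Each is a window of 25 bases of the GENCODE M21 transcript, written 5' to 3' in the sense of the RNA with T for U, with mm10 coordinates and the edited adenosine in capitals.
Selenop, chr15:3280051-3280075, plus strand: aagaacggagaaAgaacaacaaaga
Arf3, chr15:98737100-98737124, minus strand: gtatagcctcgaActcagaaatccg
Ap2a2, chr7:141632462-141632486, plus strand: cactggagcactAggtgtggtcagt
Dagla, chr19:10245721-10245745, minus strand: ccatactgtgttAcaggcttggggc
Slc24a2, chr4:86984637-86984661, minus strand: atgatgtgtctaAgaagttccctta
Rhoa, chr9:108337118-108337142, plus strand: cttttgtgaattAggctgtaactac
Slc39a3, chr10:81030427-81030451, minus strand: tgcagagggcatAgcagtgagactc
Snhg11, chr2:158384941-158384965, plus strand: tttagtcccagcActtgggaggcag
Dlg4, chr11:70032063-70032087, plus strand: attgagccgggcAgtggtggcacat

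None of these 9 sites has G before the edited base, and 6 have G after it. The same held across the sites: G preceded 18 of 480 (3.75%), against 21.5% of all adenosines of the same 3' UTRs, and G followed 49.8%, against 27.2%. T preceded 41.9% of the sites, against 22.4% of the adenosines. A or T before together with G after, the neighbours known to favour ADAR enzymes, stood at 32.1% of the sparse sites, against 12.3% of the adenosines. Among clustered sites that share was 20.1%, against 12.4%, with G before at 12.2% and G after at 42.7%. These shares were not tested.

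Most sparse sites were edited in a minority of molecules. Over all libraries the median level was 6.30%, with quartiles of 1.52 and 13.99% and a maximum of 82.7%. No G was read in any library at 16 sites, which are listed for another base, and 86 sites stood above 0 and up to 1%. The largest class, 188 sites (39.2%), lay above 5 and up to 20%, while 62 lay above 20 and up to 50% and 14 above 50%. Clustered sites had a median of 4.09%, with 26.9% of them in the class above 5 and up to 20%. Sparse sites with 0 neighbours had a median of 5.09%, those with 1 had 7.78%, and those with 2 had 6.91%. Just outside the rule, sites with 3 neighbours had a median of 6.82%.

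**Figure D1:**
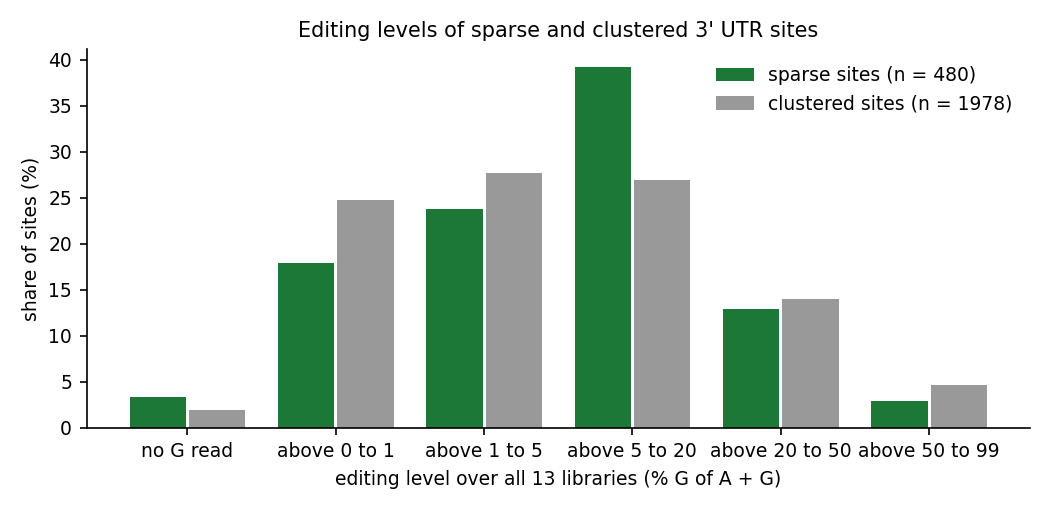
Share of sites (y axis, percent of the sites of each kind) by editing level over all 13 libraries (x axis, percent G of A plus G), for the 480 sparse and 1978 clustered 3' UTR sites. The class above 5 and up to 20% holds 39.2% of sparse sites and 26.9% of clustered sites.

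A site had a median of 43 reads per library. At that depth 4 edited reads give a level of 9.30% with a 95% Wilson interval of 3.68 to 21.6%, and 0 edited reads allow a level of up to 6.98%; such intervals and limits cover counting error only. C or T made up 0.0174 to 0.0467% of the reads at these sites in a library. Sites with a lowest library depth of 10 or 11 reads, just inside the depth limit, had a median of 8.60% (n = 58), and those with 8 or 9, just outside, 13% (n = 62).

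An inverted match, a stretch of at least 50 bases with at least 70% identity to the reverse complement elsewhere in the same 3' UTR, covered 164 of the 480 sparse sites (34.2%), against 1468 of the 1978 clustered sites (74.2%). The share was 23.3% for sparse sites with 0 neighbours, 39.9% with 1, 44.6% with 2, and 49.3% for sites with 3. Sparse sites inside an inverted match had a median level of 10.2%, and those outside one had 4.43%. In structures predicted from 201 bases around each site, 48.3% of the sparse sites were paired, against 44.9% of the other adenosines of the same windows. Host 3' UTRs had a median length of 3476.5 bases, and the sites lay at a median of 52.6% of that length. In 63 of the 271 host genes the 3' UTR also held a clustered site.

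The sparse sites were edited at higher mean levels in P195A/P195A and P195A/+ brains than in wild-type brains, and P195A/- brains had a mean close to that of wild type. The unweighted mean over the 480 sites was 10.2% ± 0.313 in P195A/- (SD, n = 3), 11.7% ± 0.773 in P195A/P195A (n = 4), 11.4% ± 0.0808 in P195A/+ (n = 3) and 10.2% ± 0.401 in wild type (n = 3). By library it was 9.82, 10.4 and 10.2% in P195A/- brains, 12.2, 10.6, 12.3 and 11.9% in P195A/P195A, 11.5, 11.3 and 11.4% in P195A/+, and 10.1, 9.78 and 10.6% in wild type. All 4 P195A/P195A and all 3 P195A/+ libraries lay above each wild-type library, although P195A/P195A replicate 2 exceeded wild-type replicate 3 by little (10.61 against 10.57%), and the P195A/- and wild-type libraries overlapped. Since the members were chosen with earlier results known, this mean was given no test.

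Among mice of 48 days, all female, the means were 12.3 and 11.9% in 2 P195A/P195A brains and 10.1 and 9.78% in 2 wild-type brains. Among mice of 42 days they were 9.82, 10.4 and 10.2% in P195A/- brains and 12.2 and 10.6% in P195A/P195A brains. Sites with 0 neighbours had means of 8.40% ± 0.127 in P195A/-, 10.5% ± 0.701 in P195A/P195A, 9.95% ± 0.348 in P195A/+ and 8.56% ± 0.489 in wild type. Clustered sites had means of 10.6% ± 0.151, 11.7% ± 0.362, 11.5% ± 0.199 and 10.8% ± 0.274 in the same order of genotypes. P195A/P195A and P195A/+ had the highest means at sparse and at clustered sites, and whether the size of the difference differs between them was not tested.

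**Figure D2:**
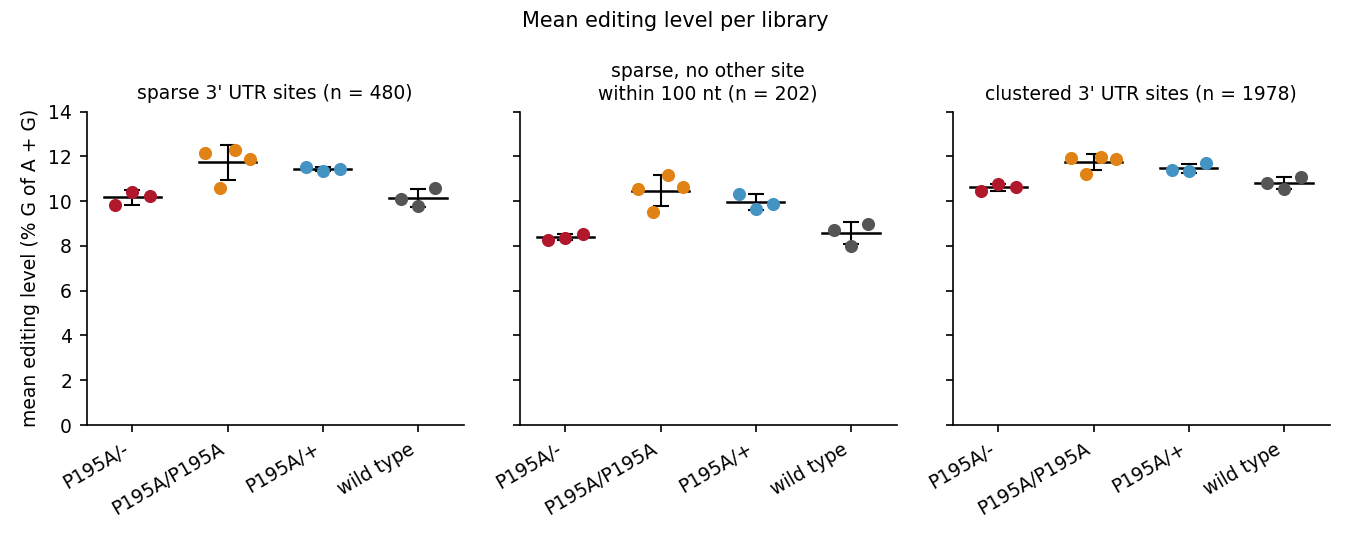
Mean editing level per library (y axis, percent G of A plus G) in the 4 genotypes (x axis) at all sparse sites, at sparse sites with 0 neighbours and at clustered sites. Points are libraries, horizontal lines are means and bars are SD over libraries (n = 3, 4, 3 and 3). Each P195A/P195A and P195A/+ point lies above the wild-type points of its panel.

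Adar RNA, measured in the same libraries in CPM (gene counts scaled to library size), stood at 201 ± 4.28 CPM in P195A/-, 323 ± 28.6 in P195A/P195A, 239.8 ± 6.63 in P195A/+ and 180.1 ± 13.3 in wild type. P195A/P195A brains exceeded wild-type brains in it by 0.84 ± 0.0775 (log2 fold change ± SE, adjusted p = 5.91e-05, edgeR) and lower in P195A/- than in P195A/P195A by a log2 fold change of -0.68 ± 0.0772 (adjusted p = 0.000773). P195A/P195A replicate 2 had the lowest unweighted mean editing of its group. Its Adar level was also the lowest there, 282 CPM against 322 to 346 in the other 3 libraries. With reads summed over the sparse sites, replicate 3 was the lowest instead, at 10.08% against 10.24% in replicate 2. Replicate 2 is also the male of the group and has its fewest gene counts. The part of the amount of Adar RNA in the editing levels was not tested. Adarb1 had 304.9 ± 7.21, 303.8 ± 25.3, 316 ± 35.6 and 305.5 ± 19.9 CPM in the 4 genotypes in the same order and passed in no comparison. Of 24 measured genes in a list of editing enzymes and their regulators, Adar was the one that passed, against P195A/P195A or wild type as given above.

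Single sites were tested in the 4 deposited pairs of genotypes, across all listed adenosines with at least 10 reads in each library and a level of 1 to 99% over the libraries compared. The effect is a log2 odds ratio of editing, from edgeR's quasi-likelihood test, and sites with a p under 0.05 after Benjamini-Hochberg adjustment passed. The 3 comparisons with wild type share the same 3 wild-type libraries, and the fourth shares both of its groups with them, so they are not independent. Of the 480 sparse sites, 365 could be tested for P195A/- against wild type, 381 for P195A/P195A, 371 for P195A/+ and 381 for P195A/- against P195A/P195A; the others had lower levels or, in the last comparison, were among 56 not listed in its table.

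Homozygosity for P195A was compared with wild type first, and had the most sites passing. In P195A/P195A brains 6 of 381 sparse sites were more highly edited and 0 less edited; over all 11551 sites tested, 0.208% passed as higher and 0% as lower. At an unadjusted p under 0.05, 53 sparse sites were higher and 6 lower, against 5.92% and 2.07% of all tested sites. The libraries of the 2 genotypes did not overlap at 31 sites in the higher direction and 13 in the lower, where all tested sites gave 5.55% and 2.73%. The median log2 odds ratio was 0.33 at the sparse sites and 0.16 over all sites, and it was above 0 at 63.8% of sparse sites and 57.3% of all. Clustered sites had a median of 0.20, above 0 at 60.7%. Of the clustered sites 0.624% passed as higher, and 8.95% were higher at an unadjusted p under 0.05. Read depth differs between these sets of sites, and its part in the shares was not tested.

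**Figure D3:**
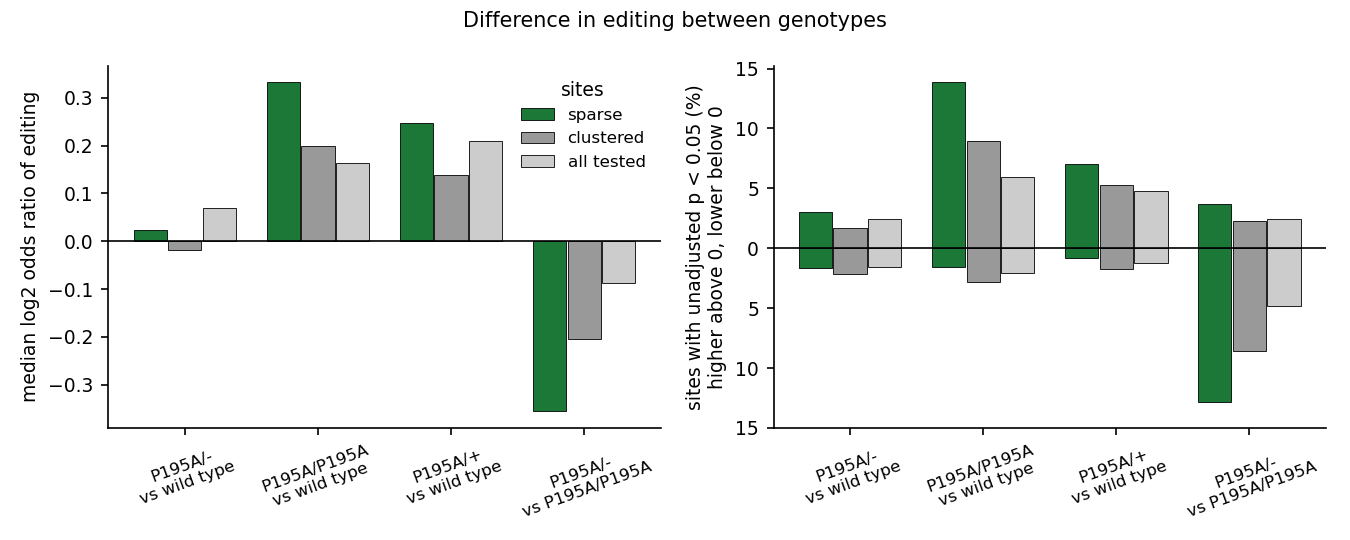
Left, median log2 odds ratio of editing in each pair of genotypes (x axis); right, share of tested sites with an unadjusted p under 0.05, with higher sites drawn above 0 and lower sites below it. Green bars are sparse sites, dark grey clustered sites and light grey all tested sites. Sparse sites have medians of 0.02, 0.33, 0.25 and -0.36 in the 4 comparisons.

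Of the 6 sites, 5 are described here. Selenop encodes selenoprotein P, which carries selenium to the brain. Its site (chr15, 3280063, 356 bases after the last coding base) had 703 to 1366 reads per library and levels of 1.42, 1.17 and 0.393% in P195A/- brains, 2.88, 1.47, 3.50 and 2.85% in P195A/P195A, 1.04, 2.86 and 2.03% in P195A/+, and 1.56, 1.14 and 0.857% in wild type. P195A/P195A exceeded wild type by a log2 odds ratio of 1.22 ± 0.248 (SE, adjusted p = 0.0044). 3 of the 4 P195A/P195A libraries lay above all wild-type libraries, and replicate 2 lay among them.

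Arf3 encodes a small GTPase of the Golgi. At its site (chr15, 98737112) the levels were 55.1, 57.5 and 59.6% in P195A/- brains, 79.4, 73.3, 89.5 and 86.3% in P195A/P195A, 64.6, 62.2 and 58.8% in P195A/+, and 57.4, 55.1 and 50.9% in wild type, from 34 to 69 reads per library. The log2 odds ratio for P195A/P195A was 1.99 ± 0.445 (adjusted p = 0.00837). All P195A/P195A libraries lay above those of the other genotypes, and the site was the most highly edited of the 8 that passed.

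Ap2a2 encodes a subunit of the AP-2 adaptor, which collects cargo for clathrin-coated vesicles at the plasma membrane. Its site (chr7, 141632474) stood at 8.09, 6.10 and 6.04% in P195A/- brains, 20.1, 15.6, 18.5 and 14.1% in P195A/P195A, 13.04, 12.02 and 12.7% in P195A/+, and 5.37, 6.88 and 9.20% in wild type. The 3 P195A/+ libraries lay between the P195A/P195A libraries and the other 2 groups, with no overlap. In P195A/P195A against wild type the log2 odds ratio was 1.38 ± 0.324 (adjusted p = 0.0164), while P195A/+ against wild type gave 0.86 ± 0.349 (adjusted p = 0.797).

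Dagla encodes the neuronal lipase that makes an endocannabinoid. Its site at chr19, 10245733, had levels of 10.8, 12.1 and 7.84% in P195A/- brains, 25.7, 12.7, 26.6 and 32.1% in P195A/P195A, 16.4, 10 and 17.1% in P195A/+, and 4.29, 8.00 and 13.2% in wild type, with a log2 odds ratio of 1.74 ± 0.414 for P195A/P195A (adjusted p = 0.0194). P195A/P195A replicate 2 lay below wild-type replicate 3. A second Dagla site, 1971 bases after the last coding base where the first lies at 1934, averaged 65.2% ± 3.29 in P195A/-, 75.4% ± 8.79 in P195A/P195A, 72.2% ± 2.05 in P195A/+ and 67.2% ± 7.02 in wild type, with a log2 odds ratio of 0.63 ± 0.405 for P195A/P195A (adjusted p = 0.738).

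Slc24a2, a sodium and calcium exchanger gene, had the lowest levels, at 0 (0 of 353 reads, which allows up to 0.85%), 0.531 and 0.676% in P195A/- brains, 2.47, 0.806, 1.66 and 1.66% in P195A/P195A, 1.07, 0.506 and 1.22% in P195A/+, and 0.236, 0.418 and 0.202% in wild type. Its log2 odds ratio was 2.46 ± 0.515 (adjusted p = 0.0254), with no overlap between P195A/P195A and wild type.

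These calls did not hold in every setting. With limma on the log2 odds per library, which shares its spread partly over sites, 0 sparse sites passed. At an unadjusted p under 0.05 in limma, 34 sparse sites were higher and 5 lower. No share over all sites is given for limma, here or in the comparisons below. Its counts therefore cannot be read as particular to the sparse sites. The 5 sites described had adjusted p of 0.43 to 0.71 in limma. Leaving out a library left 0 of the calls without wild-type replicate 2, 1 without P195A/P195A replicate 3, and 2 without wild-type replicate 1, wild-type replicate 3, P195A/P195A replicate 1 or P195A/P195A replicate 4. Each of these 5 kept its direction in every alternative run for it.

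**Figure D4:**
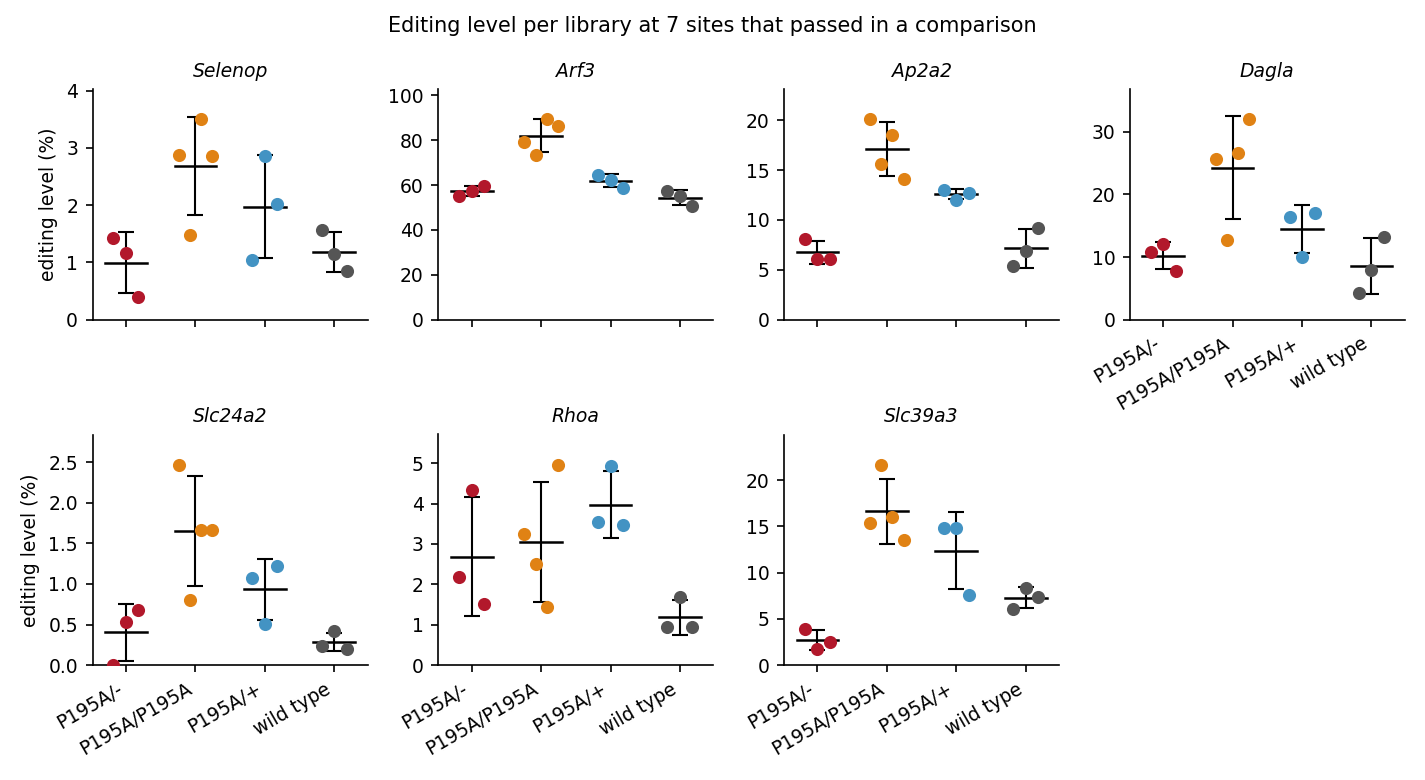
Editing level (y axis, percent G of A plus G; each panel starts at 0 and has its own scale) at 7 of the 8 sites that passed in at least 1 comparison, by genotype (x axis). Points are libraries, horizontal lines are means and bars are SD (n = 3, 4, 3 and 3). In the Arf3 panel the 4 P195A/P195A points, from 73.3 to 89.5%, lie above all others.

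A single P195A allele was compared with wild type next. In P195A/+ brains 1 of 371 sparse sites was more highly edited and 0 less, where 0.0143% of all 14019 sites passed as higher and 0% as lower. That site lies in Rhoa, which encodes a small GTPase of the actin cytoskeleton. It had 319 to 552 reads per library and levels of 2.19, 4.34 and 1.52% in P195A/- brains, 3.26, 2.51, 1.45 and 4.97% in P195A/P195A, 3.53, 4.93 and 3.47% in P195A/+, and 0.939, 1.68 and 0.935% in wild type. The 3 P195A/+ libraries lay above the wild-type ones, and the other mutant groups overlapped both. The log2 odds ratio for P195A/+ was 1.76 ± 0.357 (adjusted p = 0.0238).

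The Rhoa call was lost without wild-type replicate 1 (adjusted p = 0.233) or 3 (0.37), without P195A/+ replicate 2 (0.362) or 3 (0.0601), and in limma (0.671). At an unadjusted p under 0.05, 26 sparse sites were higher and 3 lower, against 4.79% and 1.27% of all sites, and in limma 13 and 2. Libraries did not overlap at 37 sites in the higher direction and 12 in the lower, against 8.32% and 2.92%. The median log2 odds ratio was 0.25 at the sparse sites, 0.14 at clustered sites and 0.21 over all. The next smallest p belonged to a site in Zfp398, a zinc finger gene, at 22.0, 19.2 and 24.0% in P195A/+ and 5.17, 12.1 and 7.35% in wild type (log2 odds ratio 1.63 ± 0.561, adjusted p = 0.761), and to the Selenop site (0.77 ± 0.273, adjusted p = 0.797).

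P195A/- brains gave 0 of 365 sparse sites passing against wild type in either direction with edgeR or with limma, and 0% of all 14177 sites. At an unadjusted p under 0.05, 11 sparse sites were higher and 6 lower with edgeR, against 2.45% and 1.57% of all sites, and 5 and 3 with limma. Libraries did not overlap at 14 sites in the higher direction and 12 in the lower, against 5.45% and 3.69%. The median log2 odds ratio was 0.02 at the sparse sites and 0.07 over all. The smallest p values belonged to Rhoa (1.13 ± 0.419, adjusted p = 1.00), to Ppp2ca, a phosphatase subunit gene, and to Pum2, which encodes an RNA-binding repressor of translation. Ppp2ca had 0 edited of 17, 18 and 16 reads in P195A/-, which allows up to 17.6, 16.7 and 18.8%, and levels of 5.88, 5.88 and 19.4% in wild type. Pum2 stood at 8.16, 11.01 and 7.57% in P195A/- and 1.54, 4.62 and 5.65% in wild type (1.22 ± 0.509, adjusted p = 1.00).

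By the short labels, P195A/- and P195A/P195A mice differ in the number of P195A alleles, with the reservation about the longer label given above. In P195A/- brains 3 of 381 sparse sites were less edited than in P195A/P195A brains and 0 more, where 0.0846% of all 11818 sites passed as lower and 0% as higher. At an unadjusted p under 0.05, 14 sparse sites were higher and 49 lower, against 2.45% and 4.81% of all sites. Libraries did not overlap at 12 sites in the higher direction and 30 in the lower, against 2.81% and 4.56%. The median log2 odds ratio was -0.36 at the sparse sites and -0.09 over all, and it was above 0 at 32.8% of sparse sites and 45.4% of all. Clustered sites had a median of -0.20, above 0 at 39.9%. Of the clustered sites 0.278% passed as lower, and 8.61% were lower at an unadjusted p under 0.05.

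The 3 sites were those of Selenop and Ap2a2 given above and a site in Slc39a3, a zinc importer gene. The Slc39a3 site (chr10, 81030439) had 56 to 95 reads per library and levels of 3.85, 1.79 and 2.53% in P195A/- brains, 15.4, 21.7, 16.0 and 13.5% in P195A/P195A, 14.8, 14.8 and 7.53% in P195A/+, and 6.10, 8.33 and 7.37% in wild type. The P195A/- libraries were below every other library at this site. The log2 odds ratios were -2.68 ± 0.601 for Slc39a3 (adjusted p = 0.0117), -1.47 ± 0.282 for Selenop (adjusted p = 0.00196) and -1.50 ± 0.344 for Ap2a2 (adjusted p = 0.0151). Against wild type, Slc39a3 in P195A/- had -1.38 ± 0.701 (adjusted p = 1.00).

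With limma 0 of these sites passed (11 higher and 31 lower at an unadjusted p under 0.05), with adjusted p of 0.533 for Slc39a3, 0.662 for Selenop and 0.617 for Ap2a2. The number of sparse sites passing was 0 without P195A/P195A replicate 3 or P195A/- replicate 3, 1 without P195A/- replicate 1 or 2, and 5 without P195A/P195A replicate 2. Without P195A/P195A replicate 1 the Ap2a2 call was lost (adjusted p = 0.131). Of the 8 sites that passed in any comparison, 6 had 0 neighbours and 6 had G after the edited base. Among all 480 sparse sites these numbers were 202 and 239. The lowest depth in any library had a median of 103.5 reads at the 8 sites and 28 at all 480. 1 of the 8, in Rhoa, lay in an inverted match.

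Of the 10 most highly edited sparse sites, the one in Arf3 passed in a comparison. Snhg11, a host gene of small nucleolar RNAs that M21 annotates as protein coding, had a site (chr2, 158384953) at 83.1, 84.0 and 82.5% in P195A/- brains, 79.3, 81.3, 83.1 and 81.0% in P195A/P195A, 81.7, 82.2 and 82.3% in P195A/+, and 83.2, 80.9 and 82.8% in wild type, from 593 to 905 reads per library. Each mutant group overlapped wild type there, while the P195A/- libraries lay above the P195A/+ ones. A second site of the same 3' UTR stood at 9.82% ± 0.15 in P195A/-, 9.03% ± 1.56 in P195A/P195A, 9.88% ± 0.849 in P195A/+ and 9.59% ± 0.401 in wild type.

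Lactb2, which encodes a mitochondrial ribonuclease, averaged 81.1% ± 2.61 in P195A/-, 76.8% ± 8.65 in P195A/P195A, 70.2% ± 5.05 in P195A/+ and 73.5% ± 4.61 in wild type. Rbm8a, a core gene of the exon junction complex, averaged 70.4% ± 3.30, 82.9% ± 8.45, 77.9% ± 5.42 and 72.0% ± 5.71 in the same order, and Soat1, whose enzyme esterifies cholesterol, 68.7% ± 5.47, 79.6% ± 8.62, 78.1% ± 9.82 and 67.0% ± 8.97. Samd8, a sphingolipid synthase gene, had 55.6, 69.6 and 64.2% in P195A/- brains, 77.1, 71.1, 77.5 and 69.3% in P195A/P195A, 69.0, 69.7 and 71.8% in P195A/+, and 59.1, 65.1 and 61.9% in wild type. Its P195A/P195A libraries lay above the wild-type ones, with a log2 odds ratio of 0.77 ± 0.301 (adjusted p = 0.474). Zfp398, 4933434E20Rik and Mrps17, which encodes a mitochondrial ribosomal protein, held the remaining sites of the 10 beside those of Arf3 and Dagla, with group means between 51.5 and 86.2%.

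Deeply read sites with at least 5% editing differed in the order of the genotypes. Hacd3, a gene of fatty acid elongation, averaged 6.02% ± 0.745 in P195A/-, 7.52% ± 2.11 in P195A/P195A, 7.86% ± 1.05 in P195A/+ and 8.40% ± 1.86 in wild type. Gnl3l, which encodes a nucleolar GTPase, averaged 11.8% ± 0.851, 7.61% ± 2.30, 9.68% ± 1.86 and 9.65% ± 2.35 in the same order. Crk, an adaptor of tyrosine kinase signalling, averaged 8.85% ± 1.81, 7.23% ± 2.80, 7.78% ± 1.29 and 8.30% ± 0.738, and Dusp3, a phosphatase gene, 12.1% ± 0.588, 12.3% ± 2.69, 12.9% ± 2.60 and 9.93% ± 1.23. None of these 4 sites passed in any comparison. Abhd2, Zyg11b and Sod2 had further deeply read sites, with group means between 4.10 and 12.1%.

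Dlg4, which encodes the main scaffold of the postsynaptic density, held 12 sparse sites, more than any other gene. They lie along a 3' UTR of 5466 bases of an annotated transcript. The rule accepts the 3' UTR of any annotated transcript of a gene. Which Dlg4 transcripts the reads came from was not tested. The most edited lay 245 bases after the last coding base, at 45.2, 50 and 53.6% in P195A/- brains, 64.0, 48.1, 42.9 and 56.0% in P195A/P195A, 54.5, 58.3 and 70% in P195A/+, and 44.4, 44.4 and 53.6% in wild type. The site at 294 bases averaged 32.9% ± 6.88, 39.5% ± 11.4, 33.8% ± 7.10 and 22.1% ± 5.13 in the same order. The 3 sites at 2155, 3992 and 5049 bases averaged 2.16 to 12.3% in the 4 genotypes. None of the 12 passed in any comparison. Depth was low along this 3' UTR, with 10 to 36 reads per library at the site at 834 bases.

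**Figure D5:**
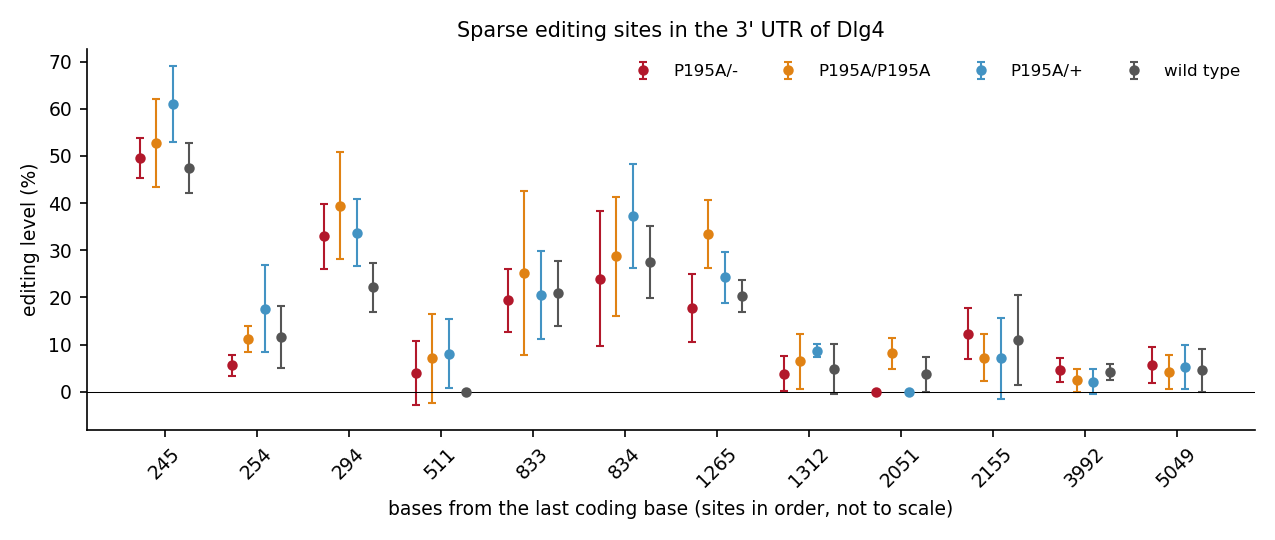
Editing level (y axis, percent; mean and SD over libraries, n = 3, 4, 3 and 3) at the 12 sparse sites of Dlg4, in order of their distance in bases from the last coding base (x axis, not to scale), by genotype. The 245-base site is the most edited in every genotype, at 47.5 to 61.0%.

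The host genes with the next most members were N4bp2l2 (8), Sod2 (7), Lmbrd2 (6) and Zfp398 (6). In Sod2, which encodes the mitochondrial superoxide dismutase, the sites ranged from 0.0945 to 11.2% in mean level. In Lmbrd2, a membrane protein gene, 3 sites had 0.863, 0.666 and 0.465% over all libraries, while another averaged 28.3% ± 1.84 in P195A/-, 40.9% ± 5.88 in P195A/P195A, 40.5% ± 2.55 in P195A/+ and 32.0% ± 2.56 in wild type. The base next to it averaged 12.4% ± 2.36, 17.3% ± 4.46, 18.1% ± 1.88 and 15.2% ± 1.30 in the same order. Sites of a gene share its RNA molecules and are not independent.

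From lists of ion channels and receptors, presynaptic proteins, postsynaptic proteins and kinases or phosphatases, which have 102, 59, 61 and 61 genes, 2, 2, 1 and 2 genes held a site. Htr2c, the serotonin receptor gene whose coding sequence is a known target of editing, had a 3' UTR site averaging 12.4% ± 5.46 in P195A/-, 9.82% ± 12.2 in P195A/P195A, 18.1% ± 11 in P195A/+ and 6.74% ± 3.79 in wild type, from 14 to 35 reads. Dnm1, the gene of dynamin, which cuts off synaptic vesicles, averaged 7.84% ± 2.04, 9.13% ± 2.82, 10.9% ± 4.32 and 9.64% ± 3.47 in the same order. Ppfia3, which encodes a presynaptic scaffold, averaged 7.25% ± 4.11, 10.6% ± 8.37, 11.4% ± 2.05 and 17.6% ± 8.38, and Camkk2, a calcium-dependent kinase gene, 10.6% ± 7.49, 8.16% ± 3.26, 1.91% ± 1.66 and 5.08% ± 0.77. None of these 4 sites passed.

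Among RNA-binding and chromatin proteins 7 of 68 genes held 9 sites. Tnrc6b, of the microRNA silencing complex, averaged 17.9% ± 8.32 in P195A/-, 29.9% ± 9.24 in P195A/P195A, 35.2% ± 11.8 in P195A/+ and 22.6% ± 5.41 in wild type. Celf2, a splicing regulator gene, averaged 8.89% ± 1.29, 6.38% ± 1.47, 7.26% ± 2.13 and 9.38% ± 1.21 in the same order. The bases around the Celf2 site are A and G only, mostly A. The Tnrc6b site lies in a run of alternating T and A that passes into alternating T and G. The part of misaligned reads in the levels of the Celf2 and Tnrc6b sites was not tested. Of 52 trafficking and lysosome genes, 4 held 6 sites, among them Arf3 and Rab18, a GTPase gene of lipid droplets and the endoplasmic reticulum, whose named sites averaged 10.6 to 27.4%. Ubiquitin and protein turnover (Rnf11) and the cytoskeleton (Tln2) each had 1 gene with a site, and no site of these 2 genes averaged 5% or more. The list of editing enzymes held 0 sites. Slc7a2, an arginine transporter gene whose nuclear transcript CTN-RNA is a known editing target in mouse, had 3 sites, averaging 4.17 to 14.7% in the 4 genotypes; levels of 0 occurred in libraries with 13 to 22 reads.

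Expression of the host genes was measured to set beside their editing. Of 270 host genes tested with edgeR, 0 passed in P195A/- against wild type, where all 19962 genes gave 0.0301% higher and 0.00501% lower. In P195A/P195A against wild type 1 was higher and 0 lower, against 0.0451% and 0.00501% of all genes. In P195A/+ against wild type 0 passed, against 0.00501% in each direction, and in P195A/- against P195A/P195A 0 passed, against 0.02% in each direction. At an unadjusted p under 0.05 there were 65, 23, 14 and 32 host genes in these comparisons, where all genes gave 10.6%, 5.89%, 4.48% and 6.82%. With DESeq2 7 (1 higher, 6 lower), 1, 1 and 1 passed. No share over all genes is given for DESeq2, so these counts cannot be set beside one. The 65 host genes of P195A/- against wild type are 24.1% of those tested, with a median log2 fold change of -0.08 for host genes and 0.02 for all.

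The host gene that passed was 4933434E20Rik, which like Adar lies on chromosome 3. It averaged 70.4 ± 2.63 CPM in P195A/-, 96.7 ± 18.9 in P195A/P195A, 92.1 ± 5.64 in P195A/+ and 56.9 ± 1.29 in wild type, a log2 fold change of 0.77 ± 0.121 for P195A/P195A (adjusted p = 0.0244). Omitting any of the 3 wild-type libraries, or P195A/P195A replicate 1 or 4, ended the call and left 0 host genes. Its editing site (chr3, 90060617) stood at 70, 70 and 67.9% in P195A/- brains, 69.0, 78.9, 65.5 and 73.1% in P195A/P195A, 58.3, 70.5 and 54.3% in P195A/+, and 64.0, 66.7 and 71.4% in wild type. All groups overlapped in editing. None of the host genes of the 8 passing sites passed in expression. Among these 8 the largest difference between P195A/P195A and wild type was in Arf3, at 711 ± 46.2 CPM in P195A/P195A and 831 ± 35.5 in wild type (-0.22 ± 0.0728, adjusted p = 0.8294).

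Library totals ranged from 13539583 to 22399172 gene counts and were lowest in P195A/P195A replicate 2. Reads at the 480 sites ranged from 32013 in that library to 46151 in wild-type replicate 3. The 6 neuronal, 4 astrocyte, 4 oligodendrocyte, 4 microglial and 3 endothelial markers were all measured at 1 CPM or more on average, and 1 of 7 markers of other tissues reached that level. The summed level of the 3 blood markers ranged from 185.8 to 917 CPM between libraries, and that of the microglial markers from 97.5 to 165 CPM. The part of these differences in the editing levels was not tested.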

How the data were processed

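RNA sequencing of whole brain was analysed in 13 mice. Sites, lists and tests were chosen with earlier results of these data known. For each site of a list of editing sites, the authors deposited the number of reads with each base in each library. Per the file headers these come from JACUSA2 2.0.0-RC5, leave out marked duplicates, need a coverage of 3 and cap depth at 3000; the build is mm10. The authors also deposited estimated counts per gene (expected counts), for which the submitters' processing notes name Salmon, edgeR and, for trimming, fastp 0.19.5. Which aligner was used is not stated in the labels or file headers.

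Members followed the stated rule. Edited and unedited reads of each library were 2 columns of a fit per deposited pair of genotypes, made in R 4.3.3 by the quasi-likelihood test of edgeR 4.0.16 (log2 odds ratio per genotype, a coefficient per library), with p adjusted by Benjamini-Hochberg over all sites tested. This test shares its spread partly over sites, and may give too small a p where animals differ at a deeply read site. The alternative was limma 3.58.1 on log2 odds with an offset of 0.5 reads, which also shares its spread partly over sites. Gene counts were rounded and fitted in 1 edgeR model of all 13 libraries (robust, TMM scaling, filterByExpr), with DESeq2 1.42.0 as alternative. Shares over all sites or genes are given for the main tests only, so counts from limma, DESeq2 and the other alternatives have none beside them. Both fits were also run on simulated data, and the outcome is not given here. The simulated site data had the same small spread between animals at every site. They therefore cannot show whether p is too small where animals differ at a deeply read site. Structures came from ViennaRNA 2.7.2 and inverted matches from BLAST 2.17.0; other steps used pandas 2.3.3, numpy 2.4.6, scipy 1.17.1 and matplotlib 3.10.9 in Python 3.11.15. Sequences are from GENCODE M21 transcripts, whose base was A at all 480 sites.

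Named sites are, per comparison, up to 8 that passed, or the 3 smallest p where fewer than 3 passed; the 10 highest mean levels; the 10 with most reads among those of at least 5%; the 5 host genes with most sites; and up to 3 sites of at least 5% per list of host genes. Other host genes named are those that passed in expression. Results for 2 of the named sites are not reported here.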

Additional observations from a re-analysis of the deposited data

Results flagged for a closer look

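In P195A/P195A, the group of 4 libraries, replicate 2 stood apart from the other 3 in 2 of 62 quantities examined, where chance sets apart about 1 in 20. The mean level of the 1978 clustered 3' UTR sites was 11.2% in that library and 11.88 to 11.95% in the other 3. The sparse site of Zyg11b, a substrate receptor gene of a ubiquitin ligase, stood at 12.6% in that library and 8.12 to 8.62% in the other 3.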

How the results depend on the processing

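The number of sparse sites passing depended on the setting. With no filter on the pooled level it was 1 for P195A/P195A against wild type (6 in the main test), 0 for P195A/+ (1) and 0 for P195A/- against P195A/P195A (3), and with limma 0 in each. A pooled level of 5 to 95% gave 0 for P195A/+ and 5 for P195A/- against P195A/P195A, and a coverage minimum of 20 gave 6 for the last. Leaving out each library in turn gave 0 to 6 for P195A/P195A, 0 to 1 for P195A/+ and 0 to 5 for P195A/- against P195A/P195A. P195A/- against wild type had 0 in every setting run. Replicate numbers are shared between genotypes but are not stated to pair the animals. With the replicate number as a block, 2 sites passed for P195A/P195A, and the number in the other comparisons stayed within 1.5 times. All 10 passing differences kept their direction in all alternatives.

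Mean levels, in the order P195A/-, P195A/P195A, P195A/+ and wild type, were 8.83, 10.7, 10.03 and 8.86% at sites with at least 20 reads, 12.8, 14.8, 14.4 and 12.7% at levels of 1 to 99%, 8.40, 10.5, 9.95 and 8.56% with 0 neighbours, and 9.30, 10.5, 9.89 and 8.78% with reads summed over sites. For P195A/+ neighbours within 50 or 200 nt gave 11.5 and 11.9%. P195A/P195A and P195A/+ stayed above P195A/- and wild type in these settings and with each library left out, while the order of P195A/- and wild type changed with the setting and with the library left out.

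Host genes passing numbered 7, 1 and 1 with DESeq2 for P195A/-, P195A/+ and P195A/- against P195A/P195A, and 1 and 1 with no filter on low counts for P195A/- and P195A/+. With the 2 genotypes alone they numbered 0 for P195A/P195A and 1 for P195A/+, and with the replicate block 0 for P195A/P195A. Leaving out a library gave 0 to 1 for P195A/P195A and 0 to 1 for P195A/- against P195A/P195A. The cause of these changes was not tested. The 323 alternatives for the mean levels of the deepest and most edited sites all stayed within 1 SD.

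With 3 or 4 animals per genotype and a median of 43 reads per site and library, differences of a few percentage points at single sites are within counting error for most sites. Age differs with genotype and could not be separated from it beyond the mice of equal age given.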

Other observations

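Of the 480 sparse sites, 40 lie 1 base from another sparse site. In N4bp2l2, 3 consecutive adenosines (chr5, 150638267 to 150638269) had levels of 12.99, 3.52 and 21.4% over all libraries. The outer ones averaged 8.64% ± 4.19 and 14.2% ± 0.654 in P195A/- brains, 20.3% ± 7.30 and 29.0% ± 7.62 in P195A/P195A brains, 16.4% ± 6.22 and 23.2% ± 4.81 in P195A/+, and 8.27% ± 5.62 and 17.2% ± 11.4 in wild type. The middle one averaged 3.79% ± 1.52, 6.37% ± 2.86, 2.24% ± 1.98 and 1.62% ± 1.49 in the same order. The 3 bases share reads, and no test was made of the difference between them.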
